A study of Mus musculus with 6 samples.

Results

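The genes described here are 9 genes of DNA methylation in mouse bone marrow: 2 genes of the enzymes that write the mark (*Dnmt1*, *Dnmt3b*) and 1 of their cofactor (*Dnmt3l*), 2 eraser genes (*Tet1*, *Tet3*) and 4 genes whose proteins guard the pattern (*Uhrf1*, *Trim28*, *Zfp57*, *Ctcf*). They were chosen by symbol as genes of the DNMT family, Tet enzymes and maintenance genes of methylation or imprints, and all 9 of them were among the 39179 genes listed and the 15980 genes tested. Other methyltransferase and Tet genes were not analysed here. 

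Bone marrow RNA from 6 littermate mice was sequenced. The 3 *MxCDX2* mice (*RsCDX2::Mx1Cre*) carried the human *CDX2* coding sequence behind a loxP-flanked stop at *Rosa26*, and a Cre recombinase driven by the interferon-inducible *Mx1* promoter, which is active in many cell types besides blood cells. The control group held 1 mouse of each other genotype: control 1 carried *RsCDX2* alone, control 2 carried *Mx1Cre* alone, and control 3 was wild type, so no control genotype had a replicate and the 3 were treated as a single group. All 6 mice, aged 3 months, received poly(I:C) 3 times at 10 µg per g of body weight, and RNA was taken 6 weeks later. The labels give 1 injection per day and the methods an interval of 2 days. Between 38646101 and 49899650 reads per mouse were counted on genes.

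In mammals, DNA methylation sits mainly on the cytosine of CpG dinucleotides. DNMT1 copies the mark onto the new strand after replication and is brought to hemimethylated sites by UHRF1, whereas DNMT3B places new marks and DNMT3L, which has no catalytic activity, stimulates such placement in germ cells. TET1 and TET3 oxidise methylcytosine, which starts its removal. ZFP57 binds a methylated sequence at imprinted regions and recruits TRIM28, a scaffold of repressive chromatin, and CTCF binds many sites only when these are unmethylated, among them the imprint control region of *H19* and *Igf2*.

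For 4 genes the window before 1 start is shown, because the CpG content of these windows differs. *Dnmt1* and *Uhrf1* are abundant maintenance genes in this marrow, and *Dnmt3l* and *Zfp57* were the scarcest of the 9 genes by control mean. All 4 windows lie inside the annotated span of their gene, before an internal start, and not upstream of the whole gene. Each holds the 250 bases before a RefSeq start (GRCm38.p6), printed 5′ to 3′ on the strand of the gene with every CpG in capitals. Of the RefSeq windows of each gene, these have the most GENCODE M21 transcripts starting within 50 bases: chr9:20952624-20952873 (minus strand) for *Dnmt1*, chr17:56304063-56304312 (plus strand) for *Uhrf1*, chr10:78055085-78055334 (plus strand) for *Dnmt3l* and chr17:37002275-37002524 (plus strand) for *Zfp57*.
Dnmt1: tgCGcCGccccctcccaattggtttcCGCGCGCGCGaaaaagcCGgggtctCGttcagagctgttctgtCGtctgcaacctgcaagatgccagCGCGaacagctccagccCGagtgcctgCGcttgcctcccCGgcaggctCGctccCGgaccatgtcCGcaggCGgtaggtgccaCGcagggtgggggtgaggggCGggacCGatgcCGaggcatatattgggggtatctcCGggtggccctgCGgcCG
Uhrf1: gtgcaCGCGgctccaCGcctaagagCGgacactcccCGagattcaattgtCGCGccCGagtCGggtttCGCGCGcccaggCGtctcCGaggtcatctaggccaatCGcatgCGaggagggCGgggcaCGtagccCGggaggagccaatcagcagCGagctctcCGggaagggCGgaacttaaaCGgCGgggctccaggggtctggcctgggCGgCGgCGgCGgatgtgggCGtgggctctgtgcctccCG
Dnmt3l: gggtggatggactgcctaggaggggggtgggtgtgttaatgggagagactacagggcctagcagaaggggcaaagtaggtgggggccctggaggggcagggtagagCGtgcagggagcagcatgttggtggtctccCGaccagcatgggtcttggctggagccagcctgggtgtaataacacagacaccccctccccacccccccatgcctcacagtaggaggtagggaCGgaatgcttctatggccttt
Zfp57: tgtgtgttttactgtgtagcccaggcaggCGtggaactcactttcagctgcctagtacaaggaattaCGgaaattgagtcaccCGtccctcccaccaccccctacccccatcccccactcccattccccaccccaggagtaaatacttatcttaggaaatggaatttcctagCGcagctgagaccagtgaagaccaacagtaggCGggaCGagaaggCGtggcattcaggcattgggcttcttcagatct

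The *Dnmt1* window held 26 CpG and the *Uhrf1* window 30, against 3 in the *Dnmt3l* window, 7 in the *Zfp57* window and a median of 6 over 32851 promoter windows of the genome. At least 15 CpG were found in 27.3% of all windows, and the single windows of *Ctcf* (40), *Dnmt3b* (21), *Tet3* (17), *Trim28* (17) and *Tet1* (15) were also in that class. In all, 16 windows matched the 9 genes. The windows not shown held 7 and 2 CpG for *Dnmt1*, 10 for *Uhrf1*, 5 and 4 for *Dnmt3l*, and 6 and 3 for *Zfp57*. The contrast in CpG is therefore between the windows shown and not between all windows of these genes. The E2F-like motif TTTNNCGC, searched on both strands, was present in 4.28% of all windows. It occurred 2 times in the *Dnmt1* window shown, 1 time in each of the 2 *Uhrf1* windows, and 1 time in another *Zfp57* window. The core letters of CDX sites, TTTAT, were present on either strand in 37.3% of all windows, and among the 16 windows only in 2 of *Zfp57*. The box CCAAT was present in 33.8% of all windows. Of the windows shown, that of *Dnmt1* had 3 matches, that of *Uhrf1* 2 and that of *Zfp57* 1. Another *Dnmt1* window had 4 matches, and the other *Uhrf1* window and the *Tet3* window had 1 each. These are matches of letters within 250 bases and no binding was measured.

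The 9 genes spanned a wide range of levels. On the per-length scale (RPKM, reads per kb of exon scaled by library size, mean ± SD of the 3 controls), *Trim28* was at 71.5 ± 6.23, *Uhrf1* at 68.3 ± 16.6, *Dnmt1* at 59.0 ± 10.6 and *Ctcf* at 43.1 ± 7.81. *Tet3* followed at 10.5 ± 2.08, *Dnmt3b* at 3.03 ± 0.873, *Tet1* at 0.573 ± 0.356, *Dnmt3l* at 0.398 ± 0.0559 and *Zfp57* at 0.151 ± 0.0984. The first 4 genes overlapped with their neighbours in this order among the control mice, as did *Tet1* with *Dnmt3l*, and the other neighbours did not overlap. In *MxCDX2* mice the mean levels were 77.3 ± 7.01 for *Trim28*, 60.7 ± 2.43 for *Dnmt1*, 48.2 ± 6.70 for *Uhrf1*, 37.3 ± 2.19 for *Ctcf*, 12.5 ± 1.39 for *Tet3*, 2.71 ± 0.356 for *Dnmt3b*, 0.808 ± 0.368 for *Dnmt3l*, 0.338 ± 0.0306 for *Tet1* and 0.0992 ± 0.0324 for *Zfp57*. In these mice *Dnmt1* (58.8 to 63.5) stood above *Uhrf1* (41.0 to 54.2), and *Dnmt3l* (0.505 to 1.22) above *Tet1* (0.308 to 0.369), in both cases without overlap and in the opposite order to the control means. *Uhrf1* was above *Dnmt1* in each of the 3 controls on this scale, by little in the wild-type mouse (49.2 against 46.7). The order of these 2 genes depends on the exon lengths used, 4259 bases for *Uhrf1* and 7377 for *Dnmt1*. In raw reads *Dnmt1* was above *Uhrf1* in every mouse. The control order of *Tet1* and *Dnmt3l* rested on the wild-type mouse, with *Tet1* at 0.327, 0.410 and 0.981 and *Dnmt3l* at 0.367, 0.365 and 0.463, and the means of controls 1 and 2 were level at 0.368 and 0.366.

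None of the 9 genes passed the thresholds of an adjusted p below 0.05 and an absolute log2 fold change above 1, with edgeR's quasi-likelihood test, with DESeq2 or with limma voom. Of all genes tested, 13.6% passed both thresholds. At any fold, 0 of the 9 passed, against 21.7% of all genes (9.91% higher and 11.8% lower in *MxCDX2* mice). At an unadjusted p below 0.05 the count was 2 of 9 (*Dnmt3l* and *Uhrf1*), against 36.1% of all genes. The groups did not overlap in 1 of 9 (*Dnmt3l*), against 42.1% of all genes. The median absolute log2 fold change was 0.25 for the 9 genes and 0.39 for all tested genes. In bulk marrow, fewer cells of a type and less RNA per cell cannot be told apart.

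The wild-type control stood apart from the other controls. It was the extreme control in 9 of 9 genes, the lowest in 5 and the highest in 4. Of all tested genes it was the extreme control in 80.7%. Every gene has a lowest and a highest control, so such shares are already large by position alone. The wild-type control lay furthest out of all 6 mice in 7 of 9 genes, against 46.2% of all tested genes. It was the lowest for *Dnmt1*, *Tet3*, *Trim28* and *Ctcf* and the highest for *Dnmt3b*, *Tet1* and *Zfp57*. The same mouse had 258164 summed normalized counts of 5 megakaryocyte markers, against 31176 and 21820 in the other controls and 9853 to 13522 in *MxCDX2* mice. The part of this difference in the results was not tested, and the fold change of each of the 9 genes is therefore also given without that mouse. Without it, 2 of 9 genes (*Uhrf1* and *Ctcf*) passed at any fold, against 27.0% of all genes, and 0 passed both thresholds, against 14.9%.

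**Figure D1:**
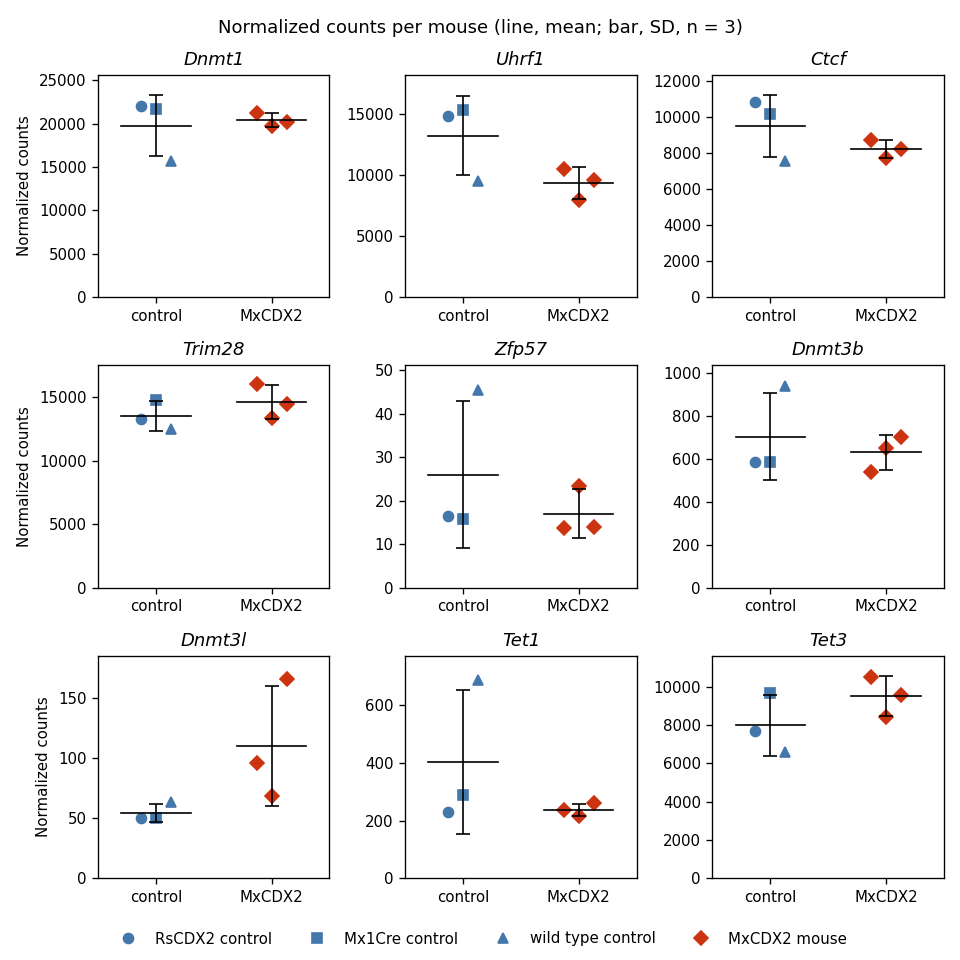
Normalized counts (y axis, linear, from 0) of the 9 genes in each mouse by group (x axis); blue circles, squares and triangles are the *RsCDX2*, *Mx1Cre* and wild-type controls, red diamonds the *MxCDX2* mice, lines the means and bars the SD (n = 3). The wild-type control was the lowest or the highest control in all 9 panels, and *Dnmt3l* was the one gene whose groups did not overlap.

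*Dnmt1* (ENSMUSG00000004099; chr9:20907209-20959888, minus strand), the maintenance methyltransferase gene, had 21996, 21682 and 15678 normalized counts in controls 1, 2 and 3, and 21285, 19708 and 20137 in *MxCDX2* mice 1, 2 and 3. The *MxCDX2* mice lay within the range of the controls. The log2 fold change was 0.04 (SE 0.16, 95% confidence interval -0.34 to 0.42, edgeR adjusted p = 0.878), an interval from 0.792-fold to 1.34-fold. It was -0.08 without the wild-type control (adjusted p = 0.542).

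*Dnmt3b* (ENSMUSG00000027478; chr2:153649450-153687730, plus strand), which encodes a de novo methyltransferase, had 584, 587 and 936 normalized counts in the controls and 539, 650 and 701 in *MxCDX2* mice. The wild-type control was the highest, and the other controls lay between the *MxCDX2* values. In log2 terms the fold change was -0.16 (SE 0.24, edgeR adjusted p = 0.677), and 0.12 without the wild-type control (adjusted p = 0.634).

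*Dnmt3l* (ENSMUSG00000000730; chr10:78041947-78063622, plus strand), the cofactor gene, had 49.8, 49.6 and 62.9 normalized counts in the controls and 95.3, 68.6 and 165 in *MxCDX2* mice. Every *MxCDX2* mouse lay above every control, *MxCDX2* mouse 2 by little and mouse 3 by most. The log2 fold change was 1.02 (SE 0.39, 95% confidence interval 0.09 to 1.94), a 2.03-fold difference in the fit with an adjusted p of 0.110 by edgeR and 0.0550 by DESeq2. The exact permutation p of the group means was 0.10, the smallest that 3 mice against 3 allow in a two-sided test. The raw reads were few, with 39 to 69 in the controls and 70 to 190 in *MxCDX2* mice. Without *MxCDX2* mouse 3 the log2 fold change was 0.60 (edgeR adjusted p = 0.341), and without the wild-type control it was 1.16 (adjusted p = 0.108). *Aire*, which overlaps *Dnmt3l* on the opposite strand, had at most 7 reads in any mouse.

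*Tet1* (ENSMUSG00000047146; chr10:62804570-62908996, minus strand), a methylcytosine dioxygenase gene, had 230, 288 and 689 normalized counts in the controls and 236, 217 and 259 in *MxCDX2* mice. The wild-type control was 2.66-fold above the mean of the other controls, which overlapped with the *MxCDX2* mice. The fit gave a log2 fold change of -0.76 (SE 0.42, 95% confidence interval -1.77 to 0.25, edgeR adjusted p = 0.249), and -0.11 without the wild-type control (adjusted p = 0.737).

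*Tet3* (ENSMUSG00000034832; chr6:83362373-83459084, minus strand), the other eraser gene and by far the more abundant in this marrow, had 7685, 9694 and 6582 normalized counts in the controls and 10542, 8430 and 9556 in *MxCDX2* mice. The groups overlapped through control 2. A log2 fold change of 0.25 was obtained (SE 0.17, 95% confidence interval -0.15 to 0.65, edgeR adjusted p = 0.331), and 0.15 without the wild-type control (adjusted p = 0.501).

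*Uhrf1* (ENSMUSG00000001228; chr17:56303321-56323486, plus strand), which recruits DNMT1 to replicated DNA, had 14845, 15308 and 9534 normalized counts in the controls and 10495, 7935 and 9594 in *MxCDX2* mice. The *RsCDX2* and *Mx1Cre* controls were above all *MxCDX2* mice, and the wild-type control was among them. The log2 fold change was -0.50 (SE 0.21, 95% confidence interval -0.999 to -0.0045, edgeR adjusted p = 0.136). Without the wild-type control it was -0.67 (SE 0.13, 95% confidence interval -0.99 to -0.36, adjusted p = 0.0152), so the call depended on that mouse.

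*Trim28* (ENSMUSG00000005566; chr7:12999114-13031035, plus strand), the scaffold gene, had 13255, 14798 and 12484 normalized counts in the controls and 16021, 13386 and 14459 in *MxCDX2* mice. The groups overlapped, and the spread was small. The fit gave a log2 fold change of 0.11 (SE 0.12, 95% confidence interval -0.18 to 0.41, edgeR adjusted p = 0.554), an interval from 0.884-fold to 1.32-fold, and 0.08 without the wild-type control (adjusted p = 0.656). *Zbtb45*, annotated over part of the same region on the opposite strand, had 820 to 1534 reads per mouse.

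*Zfp57* (ENSMUSG00000036036; chr17:37001163-37010635, plus strand), the imprint-binding zinc finger gene, was the least abundant, with 16.6, 15.9 and 45.6 normalized counts in the controls and 13.8, 23.5 and 13.9 in *MxCDX2* mice. The wild-type control was 2.81-fold above the mean of the other controls, and the remaining mice overlapped. It rested on 13 to 50 raw reads per mouse. Its log2 fold change was -0.62 (SE 0.53, 95% confidence interval -1.88 to 0.65, edgeR adjusted p = 0.454), and 0.09 without the wild-type control (adjusted p = 0.898).

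*Ctcf* (ENSMUSG00000005698; chr8:105636568-105682922, plus strand), which encodes the insulator protein, had 10834, 10175 and 7572 normalized counts in the controls and 8716, 7746 and 8247 in *MxCDX2* mice. The wild-type control was the lowest of all 6 mice and the other controls were the highest. The log2 fold change was -0.21 (SE 0.15, 95% confidence interval -0.57 to 0.15, edgeR adjusted p = 0.373). Without the wild-type control it was -0.33 (SE 0.08, adjusted p = 0.0362).

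**Figure D2:**
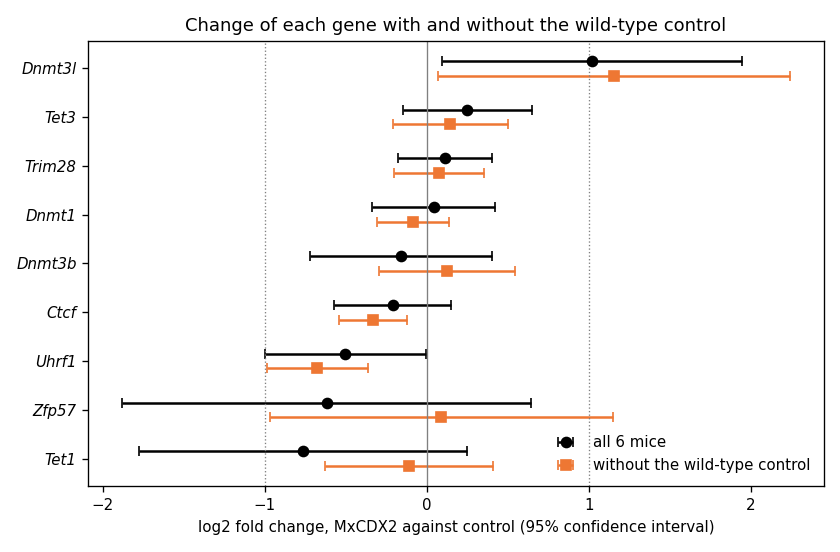
Log2 fold change of each gene (x axis, *MxCDX2* against control, bars 95% confidence intervals) with all 6 mice (black circles) and without the wild-type control (orange squares); dotted lines mark a log2 fold change of -1 and 1. *Tet1* and *Zfp57* moved towards 0 without that mouse, to -0.11 and 0.09, and the intervals of *Uhrf1* and *Ctcf* then lay below 0.

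Ratios of raw reads within a mouse do not depend on the scaling between mice. The 6 ratios computed were chosen after the values were seen, and they compare a gene with a partner. The ratio of *Uhrf1* to *Dnmt1* was 0.675, 0.706 and 0.608 in the controls and 0.493, 0.403 and 0.476 in *MxCDX2* mice, so that the groups did not overlap and the wild-type control lay with the other controls. The ratio of *Dnmt1* to *Pcna*, the replication clamp gene, was 1.45, 1.57 and 1.32 in the controls and 1.91, 2.06 and 1.98 in *MxCDX2* mice, again without overlap. The ratio of *Uhrf1* to *Pcna* overlapped, at 0.964 ± 0.156 in the controls and 0.903 ± 0.0644 in *MxCDX2* mice (SD, n = 3, exact permutation p = 0.50). Reads of *Uhrf1* and *Pcna* were therefore lower relative to *Dnmt1* in every *MxCDX2* mouse, which is an unequal change and does not say which gene moved. The ratio of *Trim28* to *Setdb1*, a histone methyltransferase that TRIM28 recruits, was 4.14 ± 0.184 in the controls and 3.605 ± 0.266 in *MxCDX2* mice, without overlap. The ratio of *Tet1* to *Tet3* was 0.0299, 0.0297 and 0.105 in the controls and 0.0224, 0.0257 and 0.0271 in *MxCDX2* mice, without overlap but with controls 1 and 2 close to the *MxCDX2* mice. The ratio of *Ctcf* to *Rad21*, a cohesin gene, overlapped at 0.502 ± 0.0160 and 0.546 ± 0.0416 (exact permutation p = 0.30). Each of the 4 ratios without overlap had an exact permutation p of 0.10, the smallest possible, and no ratio could pass 0.05. This p follows from the lack of overlap and adds nothing to it. Among single tested genes 42.1% did not overlap, and the share among all ratios was not computed. *Pcna* itself was lower without overlap (log2 fold change -0.40, edgeR adjusted p = 0.0692) and *Setdb1* higher without overlap (0.31, adjusted p = 0.0904).

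**Figure D3:**
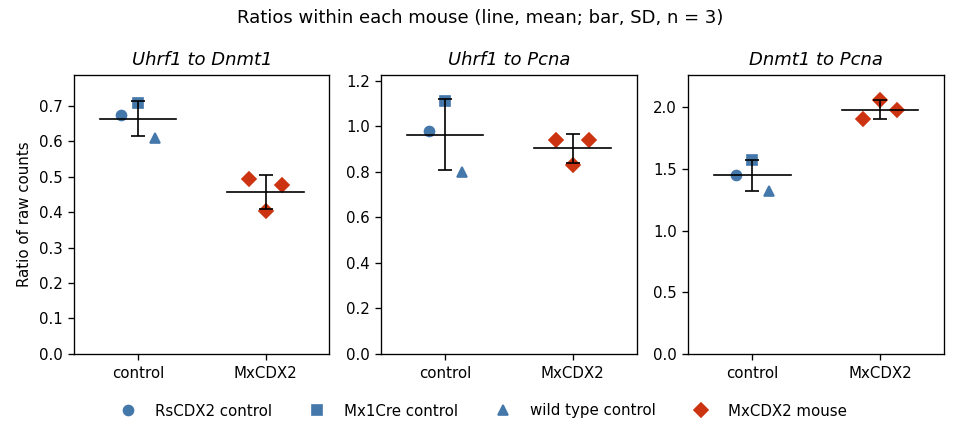
Ratio of raw counts within each mouse (y axis, linear, from 0) for 3 gene pairs by group (x axis), with lines for the means and bars for the SD (n = 3); blue symbols are controls by genotype and red diamonds *MxCDX2* mice. *Uhrf1* to *Dnmt1* and *Dnmt1* to *Pcna* separated the groups, whereas *Uhrf1* to *Pcna* overlapped.

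Other genes of the pathway are read against the same shares of all tested genes, 9.91% higher and 11.8% lower at any fold. Among 7 tested genes of active demethylation, 0 were higher and 3 lower in *MxCDX2* mice, and all 3 passed both thresholds. Without the wild-type control the same 3 passed both thresholds, with log2 fold changes of -1.84 for *Gadd45a*, -1.23 for *Cxxc5* and -1.31 for *Gadd45g*. *Gadd45a*, a stress-induced gene linked to repair-coupled demethylation, had 2511, 2348 and 2132 normalized counts in the controls and 843, 586 and 590 in *MxCDX2* mice (log2 fold change -1.79, SE 0.18, edgeR adjusted p = 0.00212). *Cxxc5*, which encodes a CpG-binding protein, had 1371, 1719 and 2258 in the controls and 640, 572 and 736 in *MxCDX2* mice (log2 fold change -1.46, SE 0.21, adjusted p = 0.00558). *Gadd45g*, of the same family as *Gadd45a*, had 878, 637 and 1075 in the controls and 417, 257 and 234 in *MxCDX2* mice (log2 fold change -1.51, SE 0.30, adjusted p = 0.0159). The groups did not overlap in any of these 3 genes. *Gadd45a* and *Cxxc5* also passed at any fold with each mouse left out in turn, and *Gadd45g* did not pass without *MxCDX2* mouse 2 or mouse 3. *Tdg*, the glycosylase that excises oxidised methylcytosine, had a log2 fold change of -0.02 (edgeR adjusted p = 0.918). *Gadd45b*, of the same family as *Gadd45a* and *Gadd45g*, had one of 0.04 (adjusted p = 0.920), and *Ogt* one of 0.15 (adjusted p = 0.732). *Smug1* was higher in *MxCDX2* mice without overlap but did not pass (log2 fold change 0.36, adjusted p = 0.144).

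Of 10 maintenance partners, 0 were higher and 2 lower at any fold, none past a log2 fold change of 1. These were *Usp7*, a deubiquitinase that stabilises DNMT1 and UHRF1 (log2 fold change -0.70, edgeR adjusted p = 0.0161), and *Chaf1b*, a subunit of the chromatin assembly factor (-0.75, adjusted p = 0.00412). *Hells*, a chromatin remodeller needed for methylation, had a log2 fold change of 0.07 (adjusted p = 0.773). Without the wild-type control 4 of the 10 were lower, and without control 1, *MxCDX2* mouse 2 or *MxCDX2* mouse 3 only 1 was.

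Of 8 genes for readers of methylated CpG, 0 passed at any fold by edgeR with all mice or without the wild-type control. *Zbtb4*, named after its values were seen, was called lower by DESeq2 (log2 fold change -0.62, adjusted p = 0.0326) and by edgeR without control 1 (-0.76, adjusted p = 0.0419). Of 12 TRIM28 partners 1 was lower, *Trim24* (log2 fold change -0.72, edgeR adjusted p = 0.0395). Of 10 tested CTCF and cohesin genes 1 was lower, *Wapl*, the cohesin release factor gene (-0.47, adjusted p = 0.0271). Of 7 other tested guards of imprints 1 was higher, *Ehmt2*, a histone H3K9 methyltransferase gene (0.60, adjusted p = 0.0143), and 1 lower, *Arid4b* (-0.47, adjusted p = 0.0145). Of 9 genes of the methyl donor cycle 1 was higher, *Shmt1* (0.60, adjusted p = 0.0291), and 1 lower, *Mthfd1* (-0.77, adjusted p = 0.00404). Without the wild-type control these genes kept their direction and their calls, with log2 fold changes of -0.49 for *Trim24*, -0.51 for *Wapl*, 0.65 for *Ehmt2*, -0.48 for *Arid4b*, 0.57 for *Shmt1* and -0.70 for *Mthfd1*. With 1 mouse left out, the count of TRIM28 partners was 0 without control 1 or any 1 of the *MxCDX2* mice and 2 without the wild-type control, and that of CTCF and cohesin genes was 0 without any 1 mouse other than the wild-type control, and 2 without it. The other guards fell to 1 without control 1 or *MxCDX2* mouse 2 and to 0 without *MxCDX2* mouse 3, and the methyl donor genes to 1 without *MxCDX2* mouse 3.

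**Figure D4:**
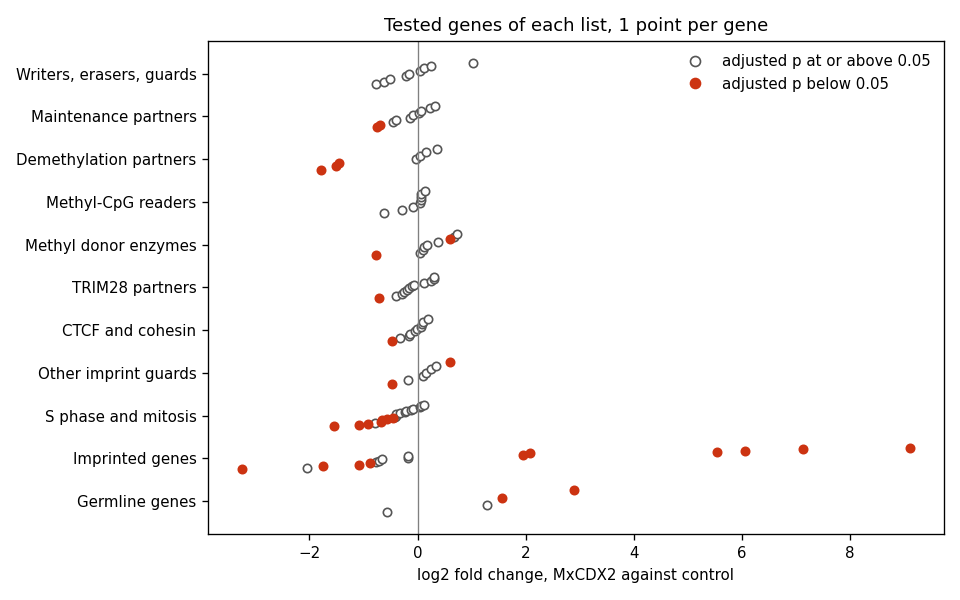
Log2 fold change (x axis, *MxCDX2* against control) of each tested gene, with 1 row per list (y axis); filled red points passed an adjusted p below 0.05 and open points did not. The 9 genes in the top row hold no filled point, and the 3 filled points of the demethylation list lie between -1.79 and -1.46; the filled points include 4 imprinted genes and 1 germline gene with at most 10 reads in any control.

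Genes that methylation keeps silent outside the germline were mostly at or near 0. Of 17 such genes 4 passed the filter on low counts, and 5 were at 0 in all mice. *Ddx4*, a germ cell RNA helicase gene, was higher in *MxCDX2* mice, with 63.9, 60.6 and 53.8 normalized counts in the controls and 145, 210 and 171 in *MxCDX2* mice (log2 fold change 1.56, edgeR adjusted p = 0.00903, and 1.51 without the wild-type control, adjusted p = 0.0148). It also passed at any fold with each mouse left out in turn. *Brdt* had a log2 fold change of -0.57 (adjusted p = 0.321) and *Sycp1* one of 1.28 (adjusted p = 0.632). *Dpep3* passed the filter through the *MxCDX2* mice alone, so its values are given with no test, as 4, 5 and 4 raw reads in the controls and 12, 46 and 52 in *MxCDX2* mice. In the opposite direction, *Slc25a31*, which the filter removed and which was named after its values were seen, had 47, 2 and 51 raw reads in the controls and 0 in every *MxCDX2* mouse. The filter also removed *Tex101* and *Tdrd1*, whose normalized counts were higher in *MxCDX2* mice without overlap. Raw reads of *Tex101* were 2, 2 and 3 in the controls and 3, 16 and 21 in *MxCDX2* mice, and those of *Tdrd1* 0, 0 and 1 against 1, 2 and 5.

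Of 27 imprinted genes listed, 16 were tested. Of these, 4 had at most 10 reads in any control and passed the filter through the *MxCDX2* mice, so their raw reads are given with no test. *H19* had 3, 2 and 8 reads in the controls and 3354, 1281 and 3239 in *MxCDX2* mice. *Dlk1* had 4, 1 and 7 against 107, 847 and 983. *Rian* had 2, 6 and 7 against 133, 622 and 334, and *Meg3* had 10, 8 and 5 against 60, 979 and 168. These 4 maternally or paternally expressed genes lie in the *H19* and *Igf2* domain and the *Dlk1* and *Meg3* domain. Among the other 12 tested genes 2 were higher and 4 lower, and without the wild-type control 1 was higher and 4 were lower. The 2 higher were *Cdkn1c*, a cell cycle inhibitor gene (log2 fold change 2.08, edgeR adjusted p = 0.0301, and 2.36 without the wild-type control), and *Igf2*, a growth factor gene (1.96, adjusted p = 0.0495, and 2.19 with adjusted p = 0.0603 without that mouse). The 4 lower were *Sgce* (-3.25, adjusted p = 0.0293, and -1.91 without that mouse), *Grb10* (-1.74 and -1.38), *Igf2r* (-1.08 and -1.33) and *Zrsr1* (-0.89 and -0.95). Over the imprinted genes with a value in each fit, 10 were called by edgeR, 5 by limma voom and 14 by DESeq2. DESeq2 kept more low genes, and edgeR on every gene with at least 1 count called 12. The cause of these differences was not tested. By edgeR the count was 6 without control 1 or *MxCDX2* mouse 3. The set counted here holds the 4 genes given with no test, so these counts are not read as results.

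Markers of proliferation and of cell types moved with the groups. Of 19 genes of S phase and mitosis 0 were higher and 7 lower, and 13 were lower without the wild-type control. Past both thresholds were *Ccne1*, which encodes cyclin E1 (log2 fold change -1.55, edgeR adjusted p = 0.00695), and *Rrm2*, which encodes a ribonucleotide reductase subunit (-1.09, adjusted p = 0.0123). The summed normalized counts of all 19 genes were 323477, 276740 and 218880 in the controls and 176771 to 216562 in *MxCDX2* mice. The wild-type control had the lowest sum of the controls. It was also the lowest control for 5 of the 9 genes (*Dnmt1*, *Uhrf1*, *Ctcf*, *Tet3* and *Trim28*) and the highest for the others. All 8 erythroid markers were lower, with sums of 819998 to 909884 in the controls and 25229 to 102232 in *MxCDX2* mice. All 6 monocyte markers were higher, with sums of 33179 to 44251 and 200755 to 269116. Lower at any fold were also 3 of 6 B cell, 1 of 5 T cell, 2 of 6 neutrophil, 2 of 5 megakaryocyte and 2 of 5 stromal markers, with 0 higher in these lists. With each mouse left out in turn, the counts ranged from 1 to 13 for S phase and mitosis (1 without *MxCDX2* mouse 3), 5 to 8 for erythroid, 5 to 6 for monocyte, 0 to 5 for B cell, 0 to 1 for T cell, 0 to 5 for neutrophil, 0 to 4 for megakaryocyte and 0 to 3 for stromal markers. The part of these cell types and of proliferation in the values of the 9 genes was not tested.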

How the data were processed

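Whole bone marrow RNA of 6 mice was sequenced. The authors aligned reads with STAR 2.5 to GRCm38, counted them per gene with HTSeq 0.6.1, and deposited raw counts per mouse, without normalization. The strand setting of the counting is not given in the sources used here.

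Counts were tested in R 4.3.3 with edgeR 4.0.16 (TMM, filterByExpr, quasi-likelihood test, MxCDX2 against control, Benjamini-Hochberg adjustment over 15980 genes). Normalized counts were raw counts divided by each mouse's TMM-adjusted library size and multiplied by the mean of these sizes. DESeq2 1.42.0 and limma 3.58.1 (voom) were alternatives, with other scalings, filters and thresholds and each mouse left out in turn. Scripts were tested on simulated data. Symbols, positions and exon lengths came from GENCODE M21, which held 37693 of 39179 identifiers, and promoter windows from RefSeq; the bases after the start were found in a transcript of the gene for 15 of 16 windows. No label says that mice of a group were independent beyond being separate mice, so p-values measure the spread between these samples.

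The genes and lists were chosen with earlier results of these data known. The rule named all 9 genes and, of each other pathway list, at most 4 genes past both thresholds by fold; pathway genes past the adjusted p alone and comparison genes were named beyond it, after their values were seen, and cell type markers by counts only; genes of like pattern were to be named only for a member that passed, and none did. Other tables and figures used Python 3.11.15, pandas 2.3.3, numpy 2.4.6, scipy 1.17.1 and matplotlib 3.10.9.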

Additional observations from a re-analysis of the deposited data

How the results depend on the processing

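The count of genes past both thresholds was 2177, and became 611 where the fold threshold was built into the test (null at log2 1) and 1043 at an adjusted p below 0.01. It ranged from 1205 (without *MxCDX2* mouse 3) to 2406 (without the wild-type control) when each mouse was left out. None of the 9 genes passed both thresholds in any of the 15 alternative settings. At any fold, 0 to 2 passed when each mouse was left out, and the 2 (*Uhrf1* and *Ctcf*) passed only without the wild-type control. The direction reversed only without that mouse, in 3 genes. The log2 fold changes with each mouse left out ran from -0.0823 to 0.139 for *Dnmt1*, from -0.272 to 0.124 for *Dnmt3b* and from -0.910 to 0.0915 for *Zfp57*, and none of these passed. Of 117 alternative values for the 9 genes, 112 kept their direction and their side of the threshold. The adjusted p ranged from 0.0550 to 0.341 for *Dnmt3l*, from 0.0152 to 0.319 for *Uhrf1* and from 0.0362 to 0.742 for *Ctcf*. The cause of these shifts was not tested. Scaling by total counts alone moved the median log2 fold change of all genes to 0.12 and turned the direction of none of the 9.

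No paired analysis was possible because the labels number only the *MxCDX2* mice, and the controls carry numbers in accession order alone. The 3 control mice differ in genotype and no genotype has a replicate, so genotype and mouse cannot be told apart among them. The fewest reads lay behind *Zfp57* and *Dnmt3l*, with at most 50 and 190 per mouse; how far counting error limited their values was not tested.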
